A study of Homo sapiens with 48 samples.

Results

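CAL27, a line from a human tongue squamous carcinoma, was grown as tumors in mice while carrying a pooled CRISPR knockout library, and the abundance of each gene's guides was measured in 10 tumors against 2 initial samples frozen before injection. The tumors are described here across genes. All value columns of the CAL27 tumor table were used, and its 327 genes are all the genes of that table, in a library that was designed for 334 genes with 136 non-targeting guides. The cells of every group stably expressed the Cas9 nuclease, received guide virus at a multiplicity of 0.3 and were selected with puromycin. For the tumors, cells were mixed with Matrigel and placed in the flanks of SHO mice, an immunodeficient strain, and tumors were taken after about 2 months. Set beside them are 2 CAL27 cultures kept for 3 weeks and 8 tumors of A431, an epidermoid carcinoma line, that carried the same library in the same mouse strain. The labels give neither the age and sex of the mice nor which tumors came from 1 mouse, and a p-value covers the spread from tumor to tumor alone. Guide abundance holds no expression, and the line's label could not be checked against marker genes.

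In a pooled knockout screen each cell carries about 1 guide, and the guides act as bar codes. Guides against a gene that the cells need to divide or survive become rarer as the population grows, and guides against a gene that holds growth back become more common. Squamous carcinomas keep features of stratified epithelium, in which basal cells divide while held to the basement membrane by integrins, under the transcription factor TP63, and in which NOTCH signalling drives cells to leave that layer and cornify. The epidermal growth factor receptor, EGFR, feeds growth signals into these cells through MAP kinases and AP-1 factors.

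Each value is a log fold change of 1 gene in 1 tumor. The labels and the table do not state the base of the logarithm, and differences are therefore given in log units rather than as folds. Negative values are read as loss of a knockout between injection and harvest. Each tumor was centred on its median gene, so 0 is the median gene of the library and not a neutral knockout. On this scale 72 of 327 genes (22.0%) were lower and 61 (18.7%) were higher past an adjusted p of 0.05 (limma, Benjamini-Hochberg over all 327 genes). Of the lower genes 37 lay below the median gene in all 10 tumors, and of the higher genes 22 lay above it in all 10. The deposited values, which are relative to the non-targeting guides, give another count. There 164 genes (50.2%) were lower and 18 (5.50%) higher, because the median gene itself lay below the non-targeting guides in every tumor, by -1.50 to -0.56 log units. All 72 genes lower on the centred scale were also lower on the deposited one. Of the 61 higher genes 18 were also higher than the non-targeting guides and 43 did not pass against them, and the 18 are named as such below. Errors after ± are SDs over 10 tumors.

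**Figure D1:**
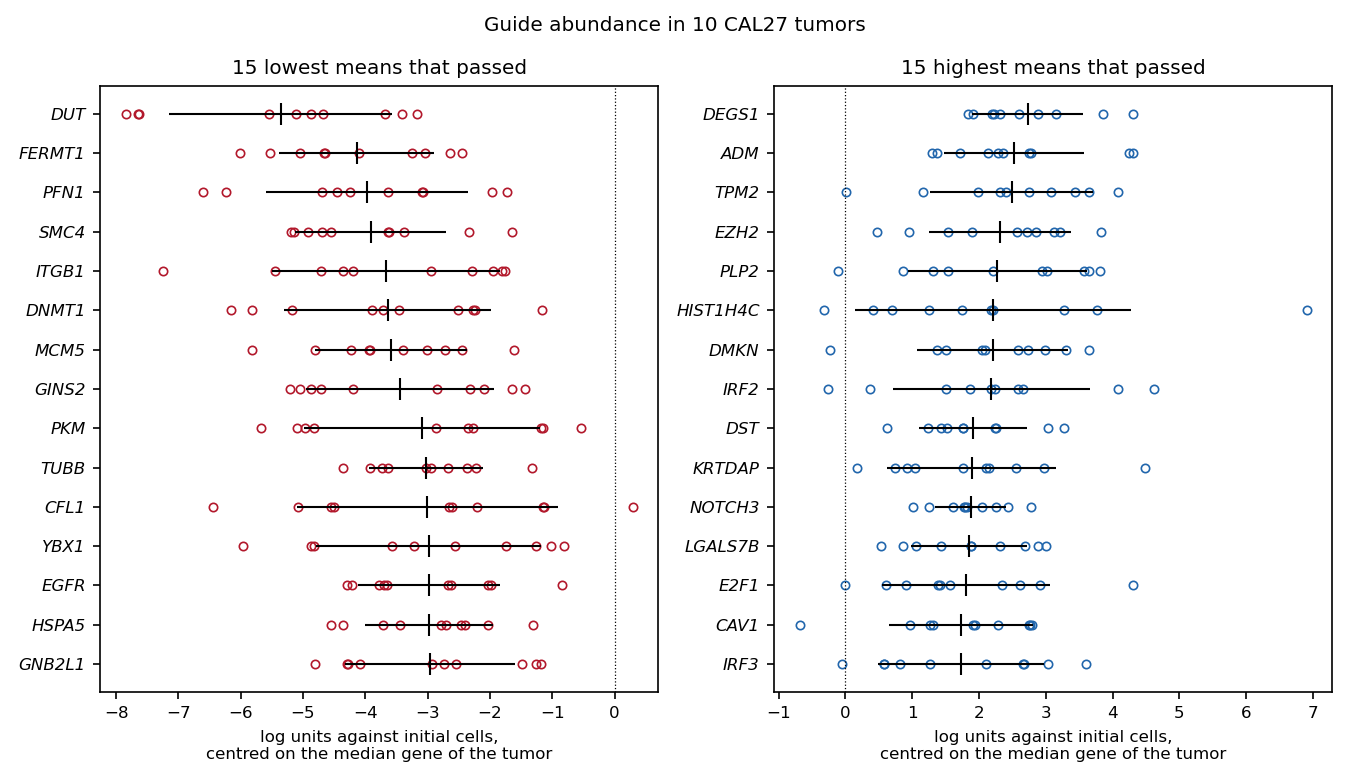
Centred log fold change in each of 10 CAL27 tumors (open circles) for the 15 lowest means (left) and the 15 highest means (right) among genes that passed, with the mean (tick) and SD (bar). DUT is the lowest gene, with a mean of -5.36, and DEGS1 the highest, with a mean of 2.73, and in both all 10 tumors lie on 1 side of the median gene, which is the dotted line at 0.

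The deepest loss was that of DUT, in the supply of DNA building blocks, and most of the listed genes that copy and repair DNA fell. DUT, the enzyme that removes dUTP so that uracil is not built into DNA, ranged over the tumors from -7.85 through a median of -4.99 to -3.18 log units, with a mean of -5.36 ± 1.79 (adjusted p = 6.35e-08). The tumor in which DUT was least reduced thus still lay more than 3 log units below the median gene. MCM5, a subunit of the replicative helicase, had values of -5.82, -3.66 and -1.62 as its lowest, median and highest tumor and a mean of -3.59 ± 1.22 (adjusted p = 3.15e-07). GINS2, a subunit of the GINS complex that works with this helicase, averaged -3.44 ± 1.51, between -5.20 and -1.44. Both were below the median gene in all 10 tumors. Of the 8 measured genes listed under DNA replication and repair 7 fell and none rose, with a median of their means of -2.58 against 0.0094 over all 327 genes. POLE3, a DNA polymerase subunit (-0.50), and KIAA0101, a PCNA-binding protein (-0.23), were measured outside this list and did not pass. The helicase subunit MCM7 (-2.94 ± 1.29), the sliding clamp PCNA (-2.85 ± 1.31) and BRCA1, which acts in repair by recombination (-2.31 ± 1.35), were low in every tumor. MCM3 (-2.15 ± 2.40) and the flap endonuclease FEN1 (-1.64 ± 2.37) had some of the widest spreads of the library. MCM3 ranged from -7.11 to 0.27 and FEN1 from -7.01 to 0.75. The FEN1 call was lost without tumor 6 (mean -1.34, adjusted p = 0.0759) and also without tumor 8 (mean -1.04). CLSPN, a mediator of the replication checkpoint, was the member that did not pass, at -0.01 ± 1.22.

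Among the 4 measured genes of nucleotide supply, DUT and RRM2 fell, TK1 rose, and TYMS did not pass. RRM2, a subunit of ribonucleotide reductase, averaged -2.08 ± 1.22 and was below the median gene in 9 tumors, with the highest tumor at 0.0021. TK1, the salvage kinase for thymidine, averaged 1.11 ± 0.85 (adjusted p = 0.00774) and was above the median gene in 9 tumors, but against the non-targeting guides its mean of 0.29 did not pass. TYMS, which makes thymidylate by the route that starts from deoxyuridine monophosphate, ranged from -0.88 through 0.11 to 2.68, with a mean of 0.40 ± 1.11 (adjusted p = 0.377).

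Mitotic genes were mixed. Of 22 measured, 11 fell, 2 rose and 9 did not pass, with a median of -0.84. SMC4, a core subunit of condensin, which compacts mitotic chromosomes, was the deepest, with a lowest, median and highest tumor of -5.20, -4.09 and -1.64 and a mean of -3.91 ± 1.21 (adjusted p = 9.30e-08). UBE2S, which extends ubiquitin chains for the anaphase-promoting complex, averaged -2.59 ± 1.70, between -4.96 and -0.41. Every tumor lay below the median gene for both. The cyclin CCNB1 (-2.04), the survivin gene BIRC5 (-1.99), the spindle assembly factor TPX2 (-1.99), the cyclin-dependent kinase subunit CKS1B (-1.46), the mitotic kinase CDK1 (-1.44), the polo-like kinase PLK1 (-1.33) and CDC20, an activator of the anaphase-promoting complex (-1.26), also fell. UBE2C, the enzyme that starts those ubiquitin chains (-1.04), and securin, PTTG1 (-0.90), passed narrowly. The UBE2C call was lost without tumor 1, 5 or 8 (-0.89 and adjusted p = 0.0616 without tumor 5), and that of PTTG1 without tumor 3, 5, 6, 7 or 10 (-0.71 and adjusted p = 0.0855 without tumor 6). The 2 that rose were MKI67, the proliferation marker Ki-67 (1.00 ± 0.91), and CKS2, the close relative of CKS1B (0.95 ± 0.61), neither of which passed against the non-targeting guides (0.19 and 0.13). CKS2 lay above the median gene in all 10 tumors while CKS1B lay below it in all 10. CENPF, a kinetochore protein, at -0.79 and the cyclin CCNB2 at -0.67 did not pass.

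Most of the measured tubulins fell. Of 6 measured tubulin and stathmin genes 4 fell and none rose, with a median of -1.83. TUBB, a beta-tubulin, had tumors at -4.36, -2.99 and -1.33 as the lowest, median and highest and a mean of -3.02 ± 0.92 (adjusted p = 5.58e-07). TUBB4B, another beta-tubulin, averaged -2.17 ± 1.09, between -4.37 and -0.46. TUBA1B, an alpha-tubulin, averaged -1.94 ± 0.44, the smallest spread of any gene but TNFRSF12A, with every tumor between -2.83 and -1.37. TUBA1C averaged -1.72 ± 1.52. TUBB2A at 0.63 ± 0.75 and STMN1, which promotes microtubule disassembly, at -0.53 ± 0.78 did not pass. Tubulin genes are close copies of each other, guides against one can cut another, and the guide sequences were not used here.

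The genes listed under translation and RNA binding fell together. All 6 measured members were lower, with a median of -2.65. The list includes the nuclear protein PTMA and leaves out the ribosomal protein RPS19, which was also lower (-1.78). YBX1, an RNA-binding protein, had tumors at -5.96, -2.89 and -0.80 as the lowest, median and highest and a mean of -2.98 ± 1.81 (adjusted p = 3.36e-05). GNB2L1, whose current symbol is RACK1 and which encodes a scaffold on the small ribosomal subunit, averaged -2.96 ± 1.36, between -4.80 and -1.17. PTMA, the acidic nuclear protein prothymosin alpha (-2.73 ± 1.68), BTF3, part of the complex that binds nascent chains at the ribosome (-2.56 ± 1.68), the poly(A)-binding protein PABPC1 (-1.63 ± 1.02) and the small ribosomal subunit protein RPSA (-1.30 ± 0.96) followed. All 6 genes lay below the median gene in all 10 tumors. Of 4 chaperone and stress genes of the endoplasmic reticulum and cytosol, 2 fell. HSPA5, the main luminal chaperone BiP, ranged from -4.56 through -2.75 to -1.31, with a mean of -2.98 ± 1.03 (adjusted p = 1.06e-06). HSP90B1, the endoplasmic reticulum member of the HSP90 family, averaged -2.55 ± 1.40. XBP1, a transcription factor of the unfolded protein response, averaged -1.12 ± 1.75 (adjusted p = 0.053), with tumor 3 at -5.46 and the next lowest tumor at -1.60. It did not pass over all 10 tumors but passed when tumor 2, 6 or 7 was left out, with means down to -1.35 over the tumors left out in turn. HSP90AA1, the inducible cytosolic HSP90, was at -0.60.

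Of 5 genes of hypoxia and glycolysis, 2 fell and 1 rose. PKM, the pyruvate kinase of the last step of glycolysis, had tumors at -5.67, -2.61 and -0.54 as the lowest, median and highest and a mean of -3.09 ± 1.89 (adjusted p = 3.33e-05). SLC2A1, the glucose transporter GLUT1, averaged -2.30 ± 1.73, between -4.97 and -0.49. Both were below the median gene in all 10 tumors. ADM, which encodes the hypoxia-induced peptide adrenomedullin, had tumors at 1.29, 2.32 and 4.30 as the lowest, median and highest and a mean of 2.52 ± 1.05 (adjusted p = 6.84e-06). It passed against the non-targeting guides (1.71) and was 1 of 3 genes, with NOTCH3 and DEGS1, that lay above the non-targeting guides in all 10 tumors. NDRG1, a hypoxia-induced gene (-0.24), and DDIT4, an inhibitor of mTORC1 signalling (-0.43), did not pass.

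Adhesion to matrix was represented by a few deep losses beside members that did not pass. FERMT1, which encodes kindlin-1, an activator of integrins in keratinocytes, ranged from -6.02 through a median of -4.37 to -2.45, with a mean of -4.14 ± 1.24 (adjusted p = 6.48e-08). ITGB1, the beta-1 integrin subunit that kindlin-1 binds, had tumors at -7.24, -3.57 and -1.75 as the lowest, median and highest and a mean of -3.67 ± 1.83 (adjusted p = 3.76e-06). They ranked 2 and 5 from the lowest of the 327 genes, and no tumor of either reached the median gene. Of 8 measured integrins and partners 3 fell and 1 rose. CD151, a tetraspanin that binds laminin-binding integrins, averaged -1.40 ± 1.94, with 6 tumors below and 4 above the median gene, and its call was lost without tumor 1, 3 or 4 (-1.14 and adjusted p = 0.0784 without tumor 4). It was also lost in the exact sign-flip test (adjusted p = 0.109) and, at -0.73, with shared values and values that differ between tumors by equal amounts left out (adjusted p = 0.206). ITGB4, the integrin subunit of hemidesmosomes, rose to 1.59 ± 0.79, above the median gene in all 10 tumors, and passed against the non-targeting guides (0.78). The alpha subunits did not pass, with ITGAV at -0.79, ITGA3 at -0.60 and ITGA6, the partner of ITGB4, at -0.24.

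In hemidesmosomes and their laminin, which anchor basal cells, 2 of 10 measured genes fell and 3 rose, with a median of -0.08. Over all 327 genes 22.0% were lower and 18.7% higher. Besides ITGB4, DST, the plakin that links hemidesmosomes to keratin, rose to 1.91 ± 0.81, with tumors from 0.62 to 3.27 (adjusted p = 4.84e-05), and passed against the non-targeting guides (1.10). LAMB3, the beta-3 chain of laminin-332, passed narrowly at 0.82 ± 0.82 and lost its call without tumor 2, 4, 6, 7 or 10 (0.69 and adjusted p = 0.0951 without tumor 7). LAMA3, the alpha-3 chain of the same laminin, fell to -1.26 ± 1.49, with tumor 6 at -4.93, and did not pass when tumors were weighted by their fit (-0.84, adjusted p = 0.0603). LAMA3 and LAMB3 thus passed in opposite directions. COL17A1, the hemidesmosomal collagen, at -0.83 ± 1.00 did not pass.

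EGFR fell in every tumor. Its lowest, median and highest tumors were -4.29, -3.16 and -0.84, and its mean was -2.98 ± 1.13 (adjusted p = 1.65e-06). The other 2 measured growth factor genes, the ligand genes PTHLH (-0.50) and NMU (0.02), did not pass. Of 9 AP-1 and immediate early genes 5 fell and 1 rose. FOSL1, the FOS-family subunit FRA1, averaged -2.74 ± 1.65, between -4.91 and -0.41. MYC averaged -2.48 ± 1.04, between -4.23 and -1.16, so that all 10 tumors were low for both. JUNB (-1.94 ± 1.45) and JUN (-1.94 ± 1.42) were each below the median gene in 9 tumors. ATF3, a stress-induced member of the ATF family (-1.22 ± 1.82), lost its call without tumor 2, 4, 6, 8 or 9 (-0.92 and adjusted p = 0.125 without tumor 4). FOS (-0.08 ± 0.51) and JUND (-0.01 ± 0.76), subunits of the same AP-1 dimers, did not pass. BHLHE40, a transcriptional repressor, rose to 1.30 ± 1.35, with tumor 4 at -1.89 and the other 9 above the median gene, and did not pass against the non-targeting guides (0.49).

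**Figure D2:**
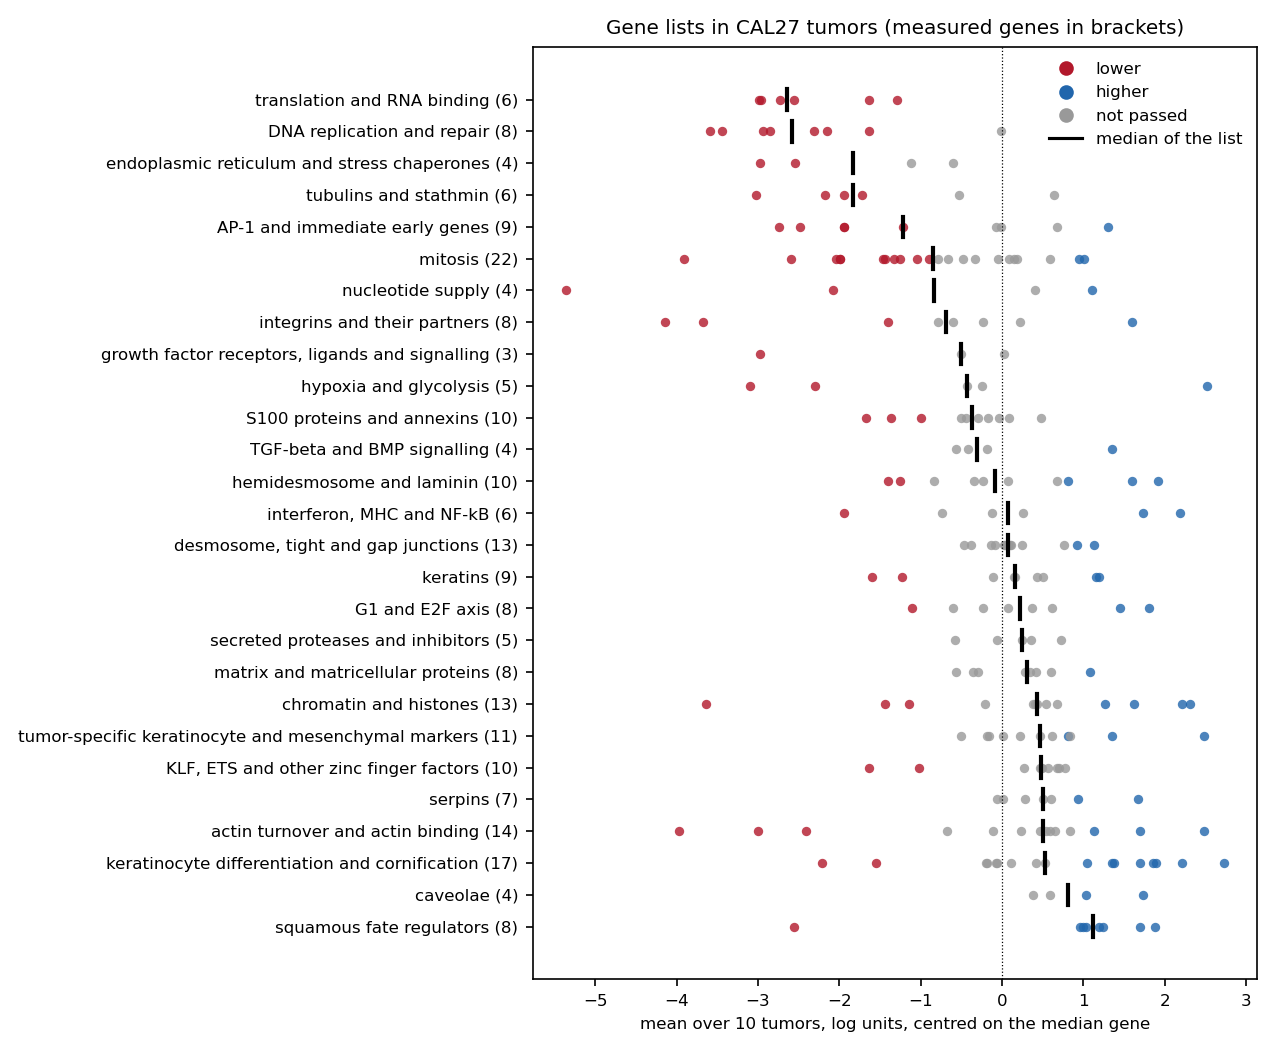
Mean centred log fold change over 10 CAL27 tumors of each gene (points) in 27 gene lists, sorted by list median (black bar), with genes lower in red, higher in blue and not passed in grey. Translation and RNA binding lies lowest, with 6 of 6 genes lower, and squamous fate regulators highest, with 7 of 8 genes higher and TP63 alone at -2.55.

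Every measured gene listed as a regulator of squamous fate passed, in a list chosen with earlier results of these data known. Of the 8 genes 1 fell and 7 rose, with a median of 1.11. Of 10 KLF, ETS and other zinc finger factors, which were listed apart, 8 did not pass. TP63, the master regulator of basal squamous cells, was the lower one, with tumors at -5.27, -2.71 and -0.09 as the lowest, median and highest and a mean of -2.55 ± 1.50 (adjusted p = 4.66e-05). NOTCH3, a NOTCH receptor, ranged from 1.01 through 1.81 to 2.78, with a mean of 1.88 ± 0.53 (adjusted p = 2.35e-05). That the ranges of TP63 and NOTCH3 did not overlap follows from TP63 lying below the median gene in every tumor and NOTCH3 above it. IRX3, a homeobox factor, averaged 1.69 ± 1.48, with 1 tumor at -0.90. SOX4 (1.24), the grainyhead factor GRHL1 (1.20), CEBPD (1.03) and CEBPA (0.99), which are C/EBP factors of differentiating epithelium, and the homeodomain protein HOPX (0.96) also rose. Of the 7 that rose, NOTCH3 alone passed against the non-targeting guides, at 1.06, and the other 6 lay between 0.14 and 0.88 on that scale. CEBPA lost its call without tumor 1, 2, 5, 6, 9 or 10 (0.85 and adjusted p = 0.0741 without tumor 9), and CEBPD without tumor 8 (0.89, adjusted p = 0.051).

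Knockouts of genes of keratinocyte differentiation passed in both directions. Of 17 measured genes 8 rose, 2 fell and 7 did not pass, with a median of 0.53. DEGS1, the desaturase that makes ceramide from dihydroceramide, had the highest mean of all genes, with tumors at 1.84, 2.46 and 4.30 as the lowest, median and highest and a mean of 2.73 ± 0.83 (adjusted p = 1.06e-06). All 10 tumors lay above the median gene and above the non-targeting guides. DMKN, a secreted protein of the differentiating epidermis, averaged 2.20 ± 1.13, with 1 tumor at -0.23 and the others above the median gene. KRTDAP, another such secreted protein, averaged 1.89 ± 1.27, and the galectin-7 genes LGALS7B and LGALS7 averaged 1.85 ± 0.87 and 1.69 ± 0.72. LGALS7 and LGALS7B are near-identical copies, so guides against one may cut both and they may not be separate results. These 5 genes passed against the non-targeting guides, with means from 0.88 to 1.91. CALML3, a calmodulin-like protein of epithelium (1.38), SBSN, suprabasin (1.35 ± 0.55), and CSTA, the cornified envelope inhibitor cystatin A (1.04 ± 1.36), rose on the centred scale only. CSTA lost its call without tumor 1, 2, 3, 6 or 10 (0.80 and adjusted p = 0.106 without tumor 10). The 2 that fell were lipid carriers, while the retinoid carrier CRABP2 of the same list did not pass (-0.20). GLTP, a glycolipid transfer protein, averaged -2.21 ± 1.65, with 9 tumors below the median gene, and FABP5, the epidermal fatty acid-binding protein, averaged -1.55 ± 1.72, with 8 below it.

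Keratins did not move as a family, with 2 of 9 lower, 2 higher and a median of 0.16. These counts are near the shares over all 327 genes (22.0% lower and 18.7% higher). KRT14, a basal keratin, fell to -1.60 ± 1.08, with tumors from -2.97 to 0.04, and KRT5, with which it forms filaments, rose to 1.16 ± 0.97, with tumors from -0.72 to 2.62. KRT16 fell to -1.23 ± 1.48 and KRT6A, a partner of KRT16 in activated keratinocytes, rose to 1.19 ± 0.78. The KRT16 call was lost without tumor 3 or 6 (-1.01 and adjusted p = 0.0578 without tumor 6). Neither KRT5 (0.34) nor KRT6A (0.38) passed against the non-targeting guides, and the KRT6 genes are close copies. KRT6B (0.50) and KRT6C (0.43) did not pass. Of 13 junction genes none fell and 2 rose, the desmosomal cadherin DSG1 (1.13 ± 0.70, above the median gene in all 10 tumors) and the gap junction protein GJA1 (0.92 ± 0.88), both on the centred scale only. The GJA1 call was lost without tumor 2, 5, 6 or 7 (0.81 and adjusted p = 0.0649 without tumor 2). DSC2 (0.76) and DSP (-0.47), desmosomal proteins, did not pass.

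Chromatin genes included 1 of the deepest losses and some of the largest gains. Of 13 measured genes in this list 3 fell and 4 rose, where 22.0% of all 327 genes were lower and 18.7% higher. The list leaves out HIST1H1A, TRIM28 and KDM5A, which rose on the centred scale and are given under the other observations. It also leaves out RCOR1 (-0.83), SAP30 (-0.05) and ATAD2 (-0.09), which did not pass. DNMT1, the maintenance DNA methyltransferase, had tumors at -6.16, -3.59 and -1.16 as the lowest, median and highest and a mean of -3.64 ± 1.66 (adjusted p = 1.67e-06). EZH2, the histone methyltransferase of Polycomb complex PRC2, had tumors at 0.48, 2.64 and 3.82 and a mean of 2.31 ± 1.07 (adjusted p = 2.11e-05). Each lay on its own side of the median gene in all 10 tumors. HIST1H4C, a histone H4 gene with the current symbol H4C3, averaged 2.21 ± 2.07, a mean to which tumor 4 at 6.91 contributed most, and SMARCA4, an ATPase of the SWI/SNF remodeller, averaged 1.62 ± 1.27. EZH2 (1.50) and HIST1H4C (1.40) passed against the non-targeting guides, whereas SMARCA4 (0.81) and HMGB1, a high-mobility group protein (1.26 ± 0.76 centred), did not. HMGN2, a nucleosome-binding protein (-1.14 ± 1.05), and DNAJC9, a histone chaperone (-1.43 ± 2.00), fell. The DNAJC9 call was lost without tumor 4, 6 or 10 (-1.10 and adjusted p = 0.0829 without tumor 4).

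On the axis that controls entry into the cycle, 1 of 8 genes fell and 2 rose. The shares over all 327 genes were 22.0% lower and 18.7% higher. E2F1, a transcription factor of S-phase genes, had tumors at -0.01, 1.49 and 4.31 as the lowest, median and highest and a mean of 1.81 ± 1.26 (adjusted p = 5.51e-04). CDKN2B, which encodes the kinase inhibitor p15, had tumors at 0.34, 1.24 and 3.77 and a mean of 1.45 ± 1.05 (adjusted p = 0.00173). All 10 tumors were above the median gene for CDKN2B and 9 for E2F1. E2F1 passed against the non-targeting guides (0.99) and CDKN2B did not (0.64). TFDP1, the dimer partner of E2F factors, fell to -1.10 ± 1.29, so that the partners of this dimer passed in opposite directions, and its call was lost without tumor 3 or 6 (-0.89 and adjusted p = 0.0645 without tumor 6). E2F8 (0.62) and E2F2 (-0.60) did not pass.

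Actin genes also passed in both directions. Of 14 measured, 3 fell and 3 rose, near the shares over all 327 genes (22.0% lower and 18.7% higher). The 3 that fell have parts in filament turnover or branching. ARPC1B, another subunit of the branching complex Arp2/3, did not pass, with deposited values from -3.14 to 2.58. PFN1, profilin, which feeds actin monomers to growing ends, ranged from -6.61 through -3.94 to -1.72, with a mean of -3.98 ± 1.62 (adjusted p = 5.85e-07). CFL1, cofilin, which severs filaments, ranged from -6.45 to 0.29, with a mean of -3.00 ± 2.10, and ARPC2, a subunit of the branching complex Arp2/3, averaged -2.41 ± 0.87. The 3 that rose bind formed filaments or their adhesion sites: the tropomyosin TPM2 at 2.49 ± 1.22 with tumors from 0.01 to 4.09 (adjusted p = 1.94e-05), the LIM protein FHL2 at 1.70 ± 0.82 and the crosslinker filamin, FLNA, at 1.13 ± 0.96. All 3 lay above the median gene in all 10 tumors, and TPM2 (1.67) and FHL2 (0.88) passed against the non-targeting guides. TPM1, another tropomyosin (0.84), and ACTB, beta-actin (-0.68), did not pass. FSCN1 and CALD1, which also bind filaments, did not pass either, with deposited values from -3.14 to 1.04 and from -1.87 to 2.06. A division of the list by function was not tested. Of 4 genes of caveolae, the plasma membrane pits that caveolins coat, CAV1 rose to 1.73 ± 1.08 with 9 tumors above the median gene and passed against the non-targeting guides (0.91). PRKCDBP, now CAVIN3, rose to 1.03 ± 0.93 on the centred scale only, and CAV2 (0.58) and PTRF, now CAVIN1 (0.38), did not pass.

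The remaining lists are given by their counts, to be read beside the shares over all 327 genes of 22.0% lower and 18.7% higher. Of 11 tumor-specific keratinocyte and mesenchymal markers none fell and 3 rose, TPM2, the activin subunit INHBA (1.35 ± 1.01) and vimentin, VIM (0.81 ± 0.87). The VIM call was lost when any tumor but 7 was left out (0.59 and adjusted p = 0.129 without tumor 3), and its mean was -0.0021 against the non-targeting guides. Of 8 matrix genes CYR61, now CCN1 (1.08, and adjusted p = 0.0594 by the exact sign-flip test), rose and none fell, and of 5 secreted proteases and inhibitors none passed, with the stromelysin MMP10 at 0.73 and urokinase, PLAU, at -0.58. Of 7 serpins SERPINB1, an inhibitor of neutrophil proteases (1.67 ± 1.10, and 0.86 with a pass against the non-targeting guides), and SERPINH1, the collagen chaperone HSP47 (0.94 ± 1.07), rose. The SERPINH1 call was lost without tumor 3, 4, 5, 6 or 9 (0.71 and adjusted p = 0.0963 without tumor 4). Of 10 S100 proteins and annexins S100A16 (-1.68), S100A11 (-1.37) and the annexin ANXA2 (-0.99 ± 0.47, below the median gene in all 10 tumors) fell and none rose. Of 6 genes of interferon, MHC and NF-kB, the interferon regulatory factors IRF2 (2.19 ± 1.48) and IRF3 (1.73 ± 1.24) rose and the interferon-induced membrane protein IFITM3 (-1.95 ± 1.24) fell, and IRF2 (1.37) passed against the non-targeting guides. Of 4 TGF-beta genes INHBA rose. Of 10 KLF, ETS and other zinc finger factors ZBTB7B (-1.64) and KLF7 (-1.02) fell, and the KLF7 call was lost without tumor 2, 3, 4, 6, 7 or 8 (-0.64 and adjusted p = 0.119 without tumor 3).

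Of the 106 genes in none of these lists 10 fell and 16 rose, with a median of 0.06. The 10 lower ones, named after their values were seen, included subunits of the nuclear RNA polymerases, POLR2A (-1.92), POLR3G (-1.49) and POLR1D (-1.21), the ribosomal protein RPS19 (-1.78), thymidine phosphorylase, TYMP (-2.05), and ornithine decarboxylase, ODC1, the first enzyme of polyamine synthesis (-1.52). The others were HOMER3 (-1.66), the metallothionein MT1X (-1.10), C10ORF99 (-1.01) and the spindle pole protein ASPM (-0.98). Of the 16 higher ones PLP2, a membrane protein, was the highest at 2.28 ± 1.34, with 9 tumors above the median gene, and it alone passed against the non-targeting guides (1.46).

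Some of the gains coincide with a property of the values. In the 3 tables used here 15 genes share an exact value with another gene in at least 1 column: ADM, CALD1, CD151, DMKN, DST, FAM213A, HDAC1, INHBA, IRF3, IRX3, KRT6A, SERPINB1, SERPINH1, TPM2 and USF2. Of these 15 genes 11 rose and 1 fell in the tumors, with a median of 1.35, while among the other 312 genes 50 rose and 71 fell, with a median of -0.05. In culture the median of the 15 was 0.0018. The part of these shared values in the results was not tested. In the tumors the exact sharing concerned 2 values only, DMKN and TPM2 in tumor 10, both at 3.64. At the low end, 52 values in tumors 3, 4, 6, 7 and 8 belonged to genes that differ between 2 tumors by exactly the same amount as 3 or more other genes. EGFR, CFL1, GNB2L1 and MCM7 held 3 such values each and PCNA 4. Whether these values are a lower limit of the measurement was not tested. With both kinds of value left out, 71 genes were lower and 61 higher.

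**Figure D3:**
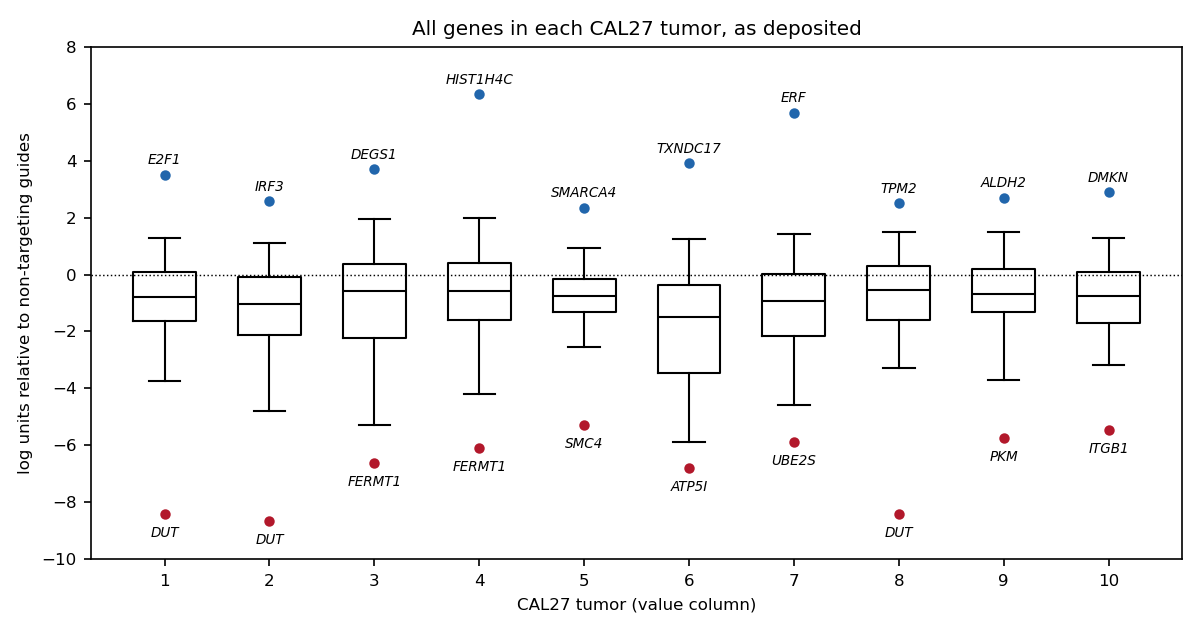
Deposited log fold changes of 327 genes in each of 10 CAL27 tumors, relative to the non-targeting guides at 0. Boxes span the quartiles with the median as a line, whiskers span the 5th to 95th percentile, and points mark the lowest (red) and highest (blue) gene. The median gene lies below 0 in all 10 tumors, farthest in tumor 6 at -1.50, and DUT is the lowest gene in tumors 1, 2 and 8.

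The tumors, numbered here by the order of their value columns, differed in how widely their genes were spread. The SD over genes was 1.09 in tumor 5 and 2.23 in tumor 6, with the other 8 between these. Tumor 6 had 47 genes below -3 log units and 12 above 3, against 7 and 1 in tumor 5. In each tumor between 59 and 70 of the 72 lower genes were below the median gene, and between 52 and 59 of the 61 higher genes were above it. Without tumor 6, 63 genes were lower and 55 higher. By list the counts without it changed by at most 1 gene in either direction, so that 6 of 8 replication genes and 6 of 6 translation genes were still lower, 10 of 22 mitotic genes lower and 2 higher, and 6 of 8 squamous fate genes higher and 1 lower.

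The gene at either end of a tumor was seldom the same. DUT was lowest in tumors 1, 2 and 8, at -7.64, -7.65 and -7.85, and FERMT1 was lowest in tumors 3 and 4, at -6.02 and -5.54. In the remaining tumors the lowest gene was SMC4 (-4.55, tumor 5), ATP5I, an ATP synthase subunit now called ATP5ME (-5.30, tumor 6), UBE2S (-4.96, tumor 7), PKM (-5.09, tumor 9) and ITGB1 (-4.72, tumor 10). The highest gene differed in every tumor. It was E2F1 (4.31) in tumor 1, IRF3 (3.60) in tumor 2, DEGS1 (4.30) in tumor 3, HIST1H4C (6.91) in tumor 4, SMARCA4 (3.10) in tumor 5 and TXNDC17, a thioredoxin-like protein (5.42), in tumor 6. ERF, an ETS-family repressor (6.62), was highest in tumor 7, TPM2 (3.07) in tumor 8, the aldehyde dehydrogenase ALDH2 (3.36) in tumor 9 and DMKN, level with TPM2 (3.64), in tumor 10. Of these genes ATP5I (-0.91 ± 1.64), TXNDC17 (0.71 ± 1.92), ERF (0.77 ± 2.66) and ALDH2 (0.62 ± 1.15) did not pass over the 10 tumors. ERF was extreme in both directions, with a deposited value of -4.68 in tumor 3.

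**Figure D4:**
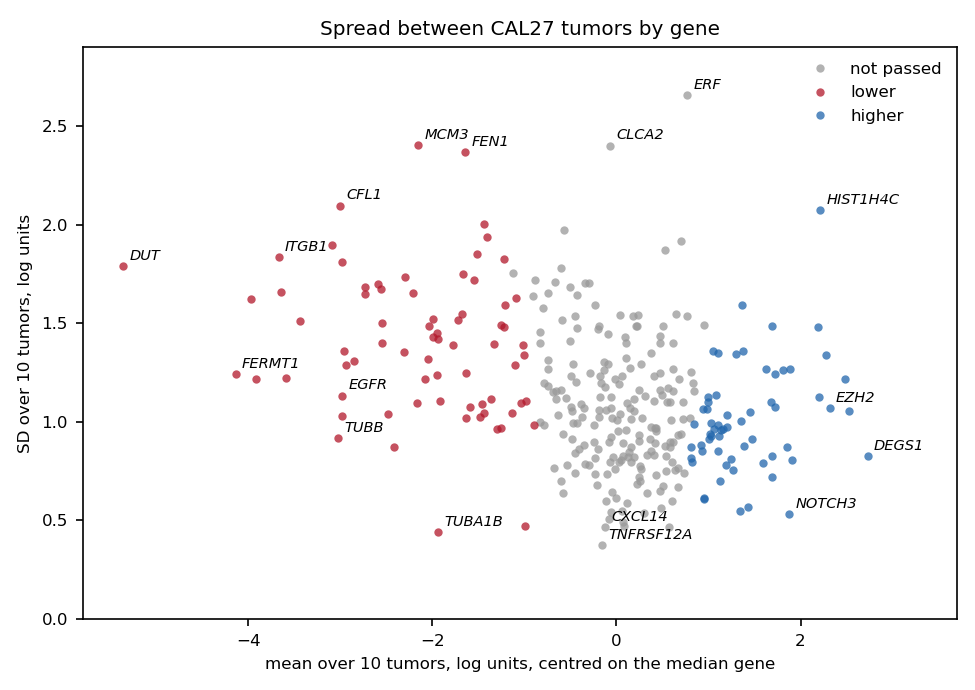
Mean over 10 CAL27 tumors (horizontal axis) against the SD over the same tumors (vertical axis), in log units, for 327 genes coloured by call. ERF has the largest SD at 2.66 with a mean that did not pass, while TUBA1B combines a mean of -1.94 with an SD of 0.44 and NOTCH3 a mean of 1.88 with an SD of 0.53.

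Genes differed widely in how alike the tumors were. The median SD over 10 tumors was 1.09 log units across genes, 1.39 for the 72 lower genes, 0.97 for the 61 higher genes and 1.04 for those that did not pass. The 6 largest SDs were those of ERF (2.66), MCM3 (2.40), CLCA2, a chloride channel regulator of epithelium (2.40), FEN1 (2.37), CFL1 (2.10) and HIST1H4C (2.07). CLCA2 ranged from -4.47 to 3.16 around a mean of -0.07, so a mean close to the median gene covered tumors far below it and tumors far above it. The 3 smallest SDs were those of TNFRSF12A, the receptor of the cytokine TWEAK (0.37, mean -0.16), TUBA1B (0.44) and CXCL14, an epithelial chemokine (0.47, mean -0.12). NOTCH3 (0.53) and SBSN (0.55) had the steadiest values among the higher genes named here.

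**Figure D5:**
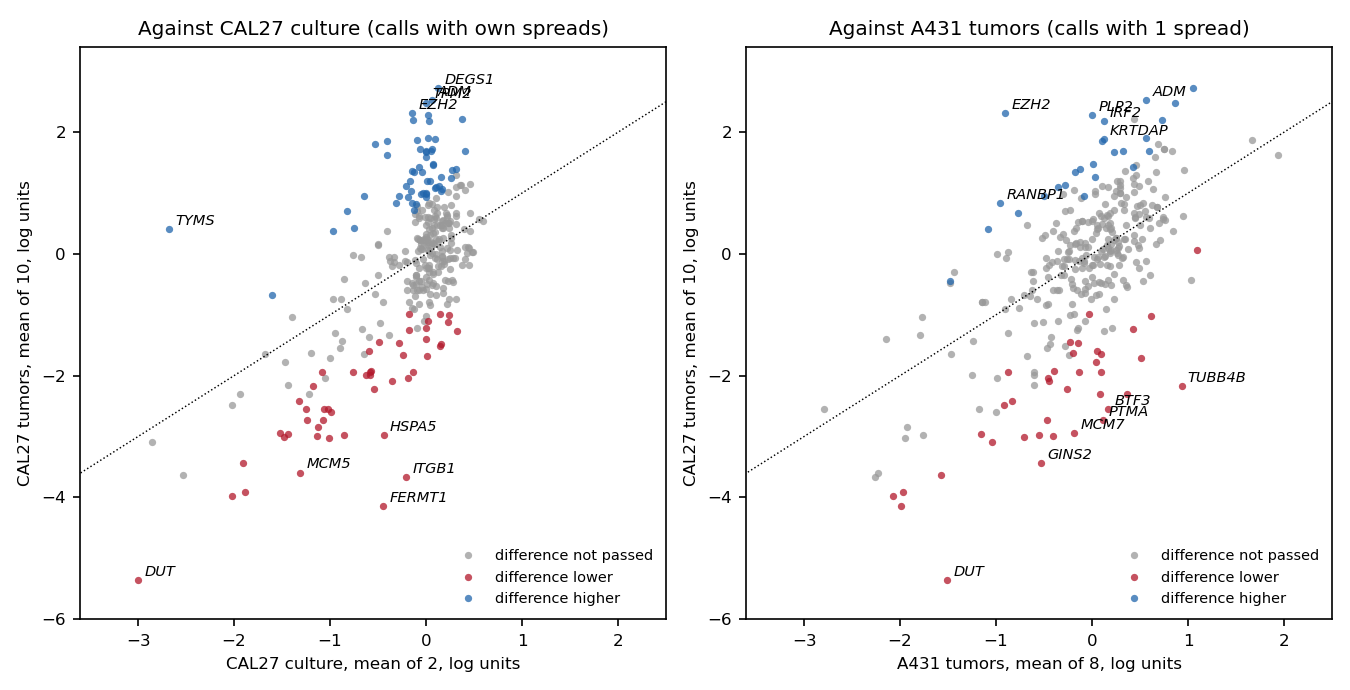
Mean centred log fold change in CAL27 tumors (vertical axes) against CAL27 culture (left) and A431 tumors (right), 1 point per gene, with the dotted line at equal values. Points are coloured by the call of the difference, tumors minus culture with own spreads on the left and CAL27 minus A431 tumors with 1 spread on the right. FERMT1 and ITGB1 lie far below the line on the left, with tumor means of -4.14 and -3.67 against culture means of -0.44 and -0.21, and EZH2 lies far above it on the right, at 2.31 in CAL27 tumors against -0.90 in A431 tumors.

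Setting tumors against culture of the same line asks which knockouts behave differently in the 2 settings. The tumors grew for about 2 months and the cultures for 3 weeks, so growth in a mouse and time of growth cannot be told apart. The labels give separate initial samples for the 2 settings. Of the 72 genes lower in tumors 44 were also among the 61 lower in culture and 28 did not pass there. Of the 61 higher genes, 5 were higher in culture, 54 did not pass there, and 2, E2F1 and CKS2, were lower there. The difference itself was then fitted. With 1 spread for both settings no gene passed in either direction (limma, 0% lower and 0% higher), with 10 genes lower and 20 higher at an unadjusted p under 0.05, and an exact permutation test over the 12 samples gave 0 genes after adjustment and 29 at an unadjusted p under 0.05. The smallest possible p of that permutation test is 0.0152, so many genes would have to reach it together before any passed the adjustment. Its 0 genes therefore cannot tell whether the settings differ. The median SD was 1.09 log units over the tumors and 0.09 over the 2 cultures. With an own spread for each setting 49 genes (15.0%) were lower and 58 (17.7%) higher in tumors than in culture. These calls rest on the spread of 2 cultures and are given with both values below.

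Both FERMT1 and ITGB1 stood far below their culture values. FERMT1 averaged -4.14 in tumors, against -0.17 and -0.72 in the 2 cultures, a difference of -3.69 (SE 0.86, adjusted p = 0.115 with 1 spread and 1.28e-06 with own spreads). ITGB1 averaged -3.67 in tumors, against -0.10 and -0.32 in culture, a difference of -3.46 (SE 1.11, adjusted p = 0.198 and 2.00e-05). All 10 tumors lay below both cultures for each gene. The same held for genes with smaller differences, such as TUBA1B (-0.86) and ANXA2 (-0.81), so it does not mark out the largest ones. HSPA5 averaged -2.98 in tumors, against -0.33 and -0.55 in culture, a difference of -2.54 (adjusted p = 0.198 and 2.00e-05). DUT averaged -5.36 in tumors, against -2.86 and -3.14 in culture, and MCM5 -3.59 in tumors, against -1.38 and -1.24 in culture, differences of -2.36 and -2.28 (adjusted p = 0.523 and 0.31 with 1 spread, 6.85e-04 and 9.94e-05 with own spreads). The direction of these 2 depends on the scale. When every column was scaled to the same median absolute deviation, the differences of DUT and MCM5 became 8.78 and 2.82, while those of FERMT1 (-1.80), ITGB1 (-2.33) and HSPA5 (-0.73) stayed negative.

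On the other side, TYMS had the most positive difference without being higher in tumors. It averaged 0.40 in tumors, against -2.43 and -2.92 in culture, a difference of 3.08 (SE 0.81, adjusted p = 0.165 with 1 spread and 5.01e-06 with own spreads), and all 10 tumors lay above both cultures. The TYMS knockout was thus among the lowest genes in culture and near the median gene in tumors. DEGS1 averaged 2.73 in tumors, against 0.27 and -0.02 in culture (difference 2.60, adjusted p = 0.165 and 5.26e-06). TPM2 and ADM, which share an exact value with other genes, differed by 2.49 and 2.46, and EZH2, at 2.31 in tumors against -0.13 and -0.16 in culture, by 2.46. For DEGS1, TPM2, ADM and EZH2 every tumor lay above both cultures. These genes and TYMS were picked for their large differences, and how many of all genes were separated in this way was not counted. E2F1 averaged 1.81 in tumors, against -0.48 and -0.58 in culture, and NOTCH3 1.88 in tumors, against -0.08 and -0.11 in culture, with own-spread adjusted p of 9.46e-05 and 2.51e-05. PKM did not pass in either fit, with -3.09 in tumors and -2.85 in culture (difference -0.24, 95% interval -2.62 to 2.14).

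Setting CAL27 tumors against A431 tumors asks which knockouts the 2 lines answer differently in the same mouse strain. Of 327 genes 38 (11.6%) were lower and 26 (7.95%) higher in CAL27 tumors (limma with 1 spread). The median SD over tumors was 1.09 in CAL27 and 0.63 in A431. Of the genes lower in either line, 22 were shared, out of 72 in CAL27 and 39 in A431, and of those higher 13 were shared, out of 61 in CAL27 and 26 in A431. Opposite calls were made for 3 genes. TUBB4B averaged -2.17 in CAL27 tumors and 0.93 in A431 tumors, a difference of -3.10 (SE 0.44, adjusted p = 2.43e-05), and no CAL27 tumor reached the lowest A431 tumor. EZH2 averaged 2.31 in CAL27 tumors and -0.90 in A431 tumors, a difference of 3.22 (SE 0.44, adjusted p = 2.43e-05), and all 10 CAL27 tumors, from 0.48 upward, lay above the highest A431 tumor at 0.12. TUBB4B and EZH2 are among the largest differences, and how many of all genes were separated between the lines in this way was not counted. KLF7 averaged -1.02 in CAL27 tumors and 0.62 in A431 tumors (difference -1.64, adjusted p = 0.0177).

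After TUBB4B and DUT the most negative differences were those of GINS2, PTMA, MCM7 and BTF3. DUT averaged -5.36 in CAL27 tumors and -1.51 in A431 tumors (difference -3.85, adjusted p = 0.00128), although 1 A431 tumor was at -6.29, within the CAL27 range. GINS2 differed by -2.90, PTMA by -2.85, MCM7 by -2.76 and BTF3 by -2.73, and none of these 4 genes passed in A431 tumors on its own, where their means lay between -0.54 and 0.17. FERMT1 was also lower in CAL27 tumors, at -4.14 against -1.99 in A431 tumors (difference -2.15, adjusted p = 0.00303). ITGB1 (-3.67 in CAL27 and -2.26 in A431 tumors, adjusted p = 0.109), EGFR (-2.98 and -1.76, adjusted p = 0.102) and TP63 (-2.55 and -2.79, adjusted p = 0.859) fell in both lines without a difference that passed. The interval of the TP63 difference ran from -1.20 to 1.68.

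Among the positive differences EZH2 was followed by PLP2 (2.28 in CAL27 and -0.0016 in A431 tumors, adjusted p = 0.00207), IRF2 (2.19 and 0.12, adjusted p = 0.00789) and ADM (2.52 and 0.57, adjusted p = 0.00215). RANBP1, a regulator of the nuclear transport GTPase Ran, did not pass in CAL27 tumors at 0.84 ± 1.15 and was lower in A431 tumors at -0.96, a difference of 1.80 (adjusted p = 0.00885). KRTDAP averaged 1.89 in CAL27 and 0.12 in A431 tumors (adjusted p = 0.0114). NOTCH3, at 1.88 in CAL27 and 1.66 in A431 tumors, was higher in both, with a difference of 0.21 and an interval from -0.52 to 0.94. SMARCA4 was likewise higher in both, at 1.62 and 1.94.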

How the data were processed

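Guide abundance was sequenced in 48 samples, 38 of them later samples of 3 lines. Bowtie2 was used, per the submitters' processing notes, with its version not stated. The authors deposited 5 tables without header lines, 3 of which were used, and per the file names their values are log fold changes per gene, recorded here as a score because base, pseudocount and guide summary are unstated. The non-targeting row was 0 throughout, so the deposited scores are relative to those guides. No counts were used, and depth is therefore unknown. Columns carry no replicate numbers and were assigned to groups by table.

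Columns were centred on their median over 327 genes and fitted with limma 3.58.1 in R 4.3.3 (lmFit, eBayes, two-sided, Benjamini-Hochberg at 0.05 over all genes), for each table alone and for 2 differences between tables, which assumes a common log base. The error of the initial cells enters no test. Alternatives were the deposited scale, an exact sign-flip test (smallest p 0.00195), trended robust moderation, columns scaled to 1 median absolute deviation, array weights, values shared exactly or differing between tumors by equal amounts left out, own spreads, an exact permutation test and leaving out each column. A filter on low values could not be run. Fits were tested on simulated data.

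Members, the 27 gene lists and the tests were chosen with earlier results of these data known. Named were the 15 lowest and 15 highest genes that passed with the mean's sign in at least 8 columns, list members that passed with up to 2 others, the extremes of each tumor, the 6 largest and 3 smallest SDs, the largest differences, up to 5 genes with conflicting calls between scales, and ITGB1, FERMT1, EGFR, TP63, NOTCH3 and CDKN2B. Other genes named from a list were chosen after their values were seen. Gene symbols are those of the tables, and all 327 matched a current RefSeq symbol, 16 of them under a changed name. A few measured genes are counted in the totals and not reported here by name.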

Additional observations from a re-analysis of the deposited data

Results flagged for a closer look

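In 19 of the 161 named genes 1 tumor stood apart from the other 9, with a gap to its nearest neighbour, as a share of the whole range, above Dixon's 95% critical value for 10 values. Chance alone gives about 1 in 20, and over all genes the share was 9.79% (32 genes). Tumor 6 was apart most often. LAMA3 at -4.93, PLAU at -2.85, DDIT4 at -4.56 and ATP5I at -5.30 were its low values, and CALML3 at 5.01 and TXNDC17 at 5.42 were among its high ones. Tumor 6 also stood apart in the level of its median gene, at -1.50 relative to the non-targeting guides, where the next lowest tumor was at -1.02.

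Tumor 4 was apart for PTHLH (-4.07), BHLHE40 (-1.89) and S100A10 (3.83), tumor 3 for CCNB2 (-4.70) and XBP1 (-5.46), tumor 7 for KRT6B (-3.23) and FST (-4.02), and tumor 9 for ACTB (0.96) and ALDH2 (3.36). Single cases were CAV1 in tumor 5 (-0.69), SOX4 in tumor 10 (-0.60) and GJA1 in tumor 1 (-1.08). S100A10, KRT6B and ACTB did not pass over all tumors and passed without the tumor that stood apart (limma adjusted p = 0.0187, 0.0255 and 0.0314).

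The difference between CAL27 and A431 tumors was tested for all 327 genes, and 38 were lower and 26 higher in CAL27 tumors (limma). The 12 given here are the largest in each direction among those that passed. The difference was -3.85 log units for DUT, -3.10 for TUBB4B, -2.90 for GINS2, -2.85 for PTMA, -2.76 for MCM7 and -2.73 for BTF3. On the positive side it was 3.22 for EZH2, 2.28 for PLP2, 2.07 for IRF2, 1.96 for ADM, 1.80 for RANBP1 and 1.77 for KRTDAP. Over 21 alternatives 10 of these calls were kept in all, while that of KRTDAP was kept in 19 and that of RANBP1 in 20.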

How the results depend on the processing

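No paired analysis was possible because the value columns carry no replicate numbers and the initial samples are in no column. Of 108 named genes that passed in CAL27 tumors 70 kept their call in all 16 alternatives, 20 lost it on the deposited scale alone, and 18 lost it elsewhere, 16 of them when a tumor was left out, as given beside each. On the deposited scale 164 genes were lower and 18 higher, and VIM turned to -0.0021. Leaving out 1 tumor gave 63 to 71 lower and 53 to 62 higher genes on the centred scale, and 146 to 157 lower and 15 to 18 higher genes on the deposited one. The other alternatives gave 60 to 73 lower and 59 to 66 higher genes on the centred scale. Against culture own spreads gave 49 lower and 58 higher genes and scaled columns 6 and 62, with DUT at 8.78 and MCM5 at 2.82, while leaving out 1 column gave 0 to 0 genes in each direction. Against A431 tumors the deposited scale gave 61 lower and 5 higher genes, scaled columns 22 and 17, and leaving out 1 tumor 31 to 46 and 19 to 28. The causes of these changes were not tested. With unknown depth, no counting error can be given for any value.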

Other observations

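Besides PLP2, 15 genes of none of the lists rose on the centred scale, none of which passed against the non-targeting guides. They are named here after their values were seen. BCAM, a laminin-binding adhesion molecule, was the steadiest of them, at 1.43 ± 0.57 (SD, n = 10 tumors, limma adjusted p = 4.04e-04), with tumors from 0.61 to 2.60, so that all 10 lay above the median gene. HIST1H1A, a linker histone now called H1-1 (1.48 ± 0.91), APP, the amyloid precursor protein (1.39 ± 0.88), SREBF2, a transcription factor of sterol synthesis (1.20 ± 1.03), TRIM28, a transcriptional corepressor (1.11 ± 0.93), and CBR1, a carbonyl reductase (1.02 ± 0.94), were above it in 9 tumors. IMPA2, an inositol monophosphatase, averaged 1.36 ± 1.59, with tumors from -0.65 to 4.74. The others were NDUFA4L2 (1.11), NSG1 (1.10), OCIAD2 (1.06), the histone demethylase KDM5A (0.99), EMP3 (0.99), the calmodulin gene CALM3 (0.94), the transcription factor USF2 (0.84) and TMEM45A (0.82).

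On the deposited scale 264 of 327 genes had a mean below the non-targeting guides, and 88 were below them in all 10 tumors. The scale decides the call of 92 genes that were lower there and did not pass on the centred scale. The lowest of them by the centred mean were XBP1 (-1.12 centred and -1.93 deposited), ATP5I (-0.91 and -1.72), RFX5, a regulator of MHC class II genes (-0.88 and -1.70), COL17A1 (-0.83 and -1.64) and the calpain subunit CAPNS2 (-0.83 and -1.64). XBP1, ATP5I and COL17A1 lay below the non-targeting guides in all 10 tumors, RFX5 in 8 and CAPNS2 in 9. Which of the 2 zero points describes a neutral knockout was not tested.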
